A study of Mus musculus with 6 samples.

Results

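The collagens and integrin subunits of the jejunal epithelium were followed in IEC, the intestinal epithelial cells, of mice lacking the histone deacetylases HDAC1 and HDAC2. Members were all genes of the deposited count table whose symbol is that of a collagen chain (Col, a number, a and a number) or begins with Itga or Itgb. This gave 61 of 19616 genes, of which 33 encode collagen chains, 25 encode integrin subunits, and 3 (Itgb1bp1, Itgb1bp2 and Itgb3bp) are named after an integrin without being a subunit. The 3 control mice (C1, C3 and C3-3) were wild-type, and the 3 Hdac1/2-deleted mice (H1, H5 and H9) were villin-Cre Hdac1-/-; Hdac2-/-. All were 3 months old, from a cross of the strains C57BL/6J, 129SV and CD1, and IEC were enriched from their jejunum with EDTA before RNA extraction, with 1 library per mouse. The villin promoter drives Cre in the intestinal epithelium, so that muscle, stromal and immune cells that come along with the IEC keep both genes. The question was which of these adhesion and matrix genes differed between control and Hdac1/2-deleted IEC, and whether the members used by epithelial cells differed together with those of stromal cells and leukocytes.

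Integrins are receptors made of 1 alpha and 1 beta subunit that span the membrane and tie the cytoskeleton to the extracellular matrix or to other cells. The beta1 subunit pairs with many alpha subunits, whereas beta4 pairs only with alpha6, in the hemidesmosomes that hold epithelial cells to laminin. Collagens are the triple-helical proteins of that matrix. Type IV forms the sheet of the basement membrane, type VII the fibrils that anchor this sheet to the connective tissue below, and types I and III the thick fibres that fibroblasts lay down. Leukocytes use beta2 and beta7 integrins to move and to stay in tissue, and intraepithelial T cells of the gut carry alpha E with beta7, which binds E-cadherin on epithelial cells.

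The control libraries held 58017009 to 65902344 counts and the Hdac1/2-deleted libraries 36111035 to 65230566, and 3 counts, the smallest level taken as shown, corresponded to 0.0405 to 0.079 CPM (counts divided by library size after TMM normalisation). That limit covers counting error only. Hdac1 fell from 40.8 ± 7.33 CPM to 3.77 ± 1.16 CPM (mean ± SD, n = 3 mice in each group here and below), with a log2 fold change of -3.43 (SE 0.26, adjusted p = 2.9e-05, edgeR). Hdac2 stood at 27.7 ± 4.72 and 24.5 ± 2.7 CPM, and since the count of a whole gene includes exons that a deletion can leave in place, it does not check that deletion. Epithelial markers were high in every mouse, with Epcam at 1503 to 1835 CPM in control and 949 to 1193 CPM in Hdac1/2-deleted mice. Transcripts of Y-linked genes were counted 3082 times in C3 and 1 to 13 times in each of the other mice. The libraries also differed in RNA of cells outside the epithelium. Summed over the smooth muscle genes Acta2, Des and Myh11 (chosen after seeing the values), C1 and C3 held 51.1 and 37.8 CPM, C3-3 held 1.71 CPM, and the Hdac1/2-deleted mice held 0.179 to 0.237 CPM. Between C1 and C3 the order differed by gene, with Myh11 at 25.4 and 12.6 CPM, Acta2 at 12.5 and 11.1 CPM and Des at 13.3 and 14.1 CPM. All 3 genes were lowest among controls in C3-3. Results that rest on C1 and C3 are therefore also given without them, an alternative chosen after seeing the data, in which C3-3 is the lone control and is assumed to vary like the Hdac1/2-deleted mice.

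Of the 61 members, 47 had enough counts to be tested (22 collagens, 23 integrin subunits and 2 of the other genes), and the 14 others had totals of 13 to 87 counts over the 6 libraries. A gene was called when its adjusted p was at most 0.05, over 15618 genes tested by edgeR's quasi-likelihood test, and it differed at least 2-fold. In all, 8 of the 47 (17%) were increased in Hdac1/2-deleted IEC, where 12.4% of all tested genes were increased, and 3 (6.38%) were decreased, against 12.7% of all genes. Among collagens 5 were increased and 1 decreased, and among integrin subunits 3 were increased and 2 decreased. The same shares of all genes apply to each count of called genes in a class or list below. All Hdac1/2-deleted mice lay above all control mice for 10 members (21.3%), against 26.7% of all genes, and below them for 5 members (10.6%), against 26.6% of all genes. The median log2 fold change was -0.22 over tested collagens, -0.17 over tested integrin subunits and -0.01 over all genes. In bulk RNA, fewer cells of a type and less RNA per cell cannot be told apart, and this holds for every result on stromal and leukocyte genes below.

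**Figure D1:**
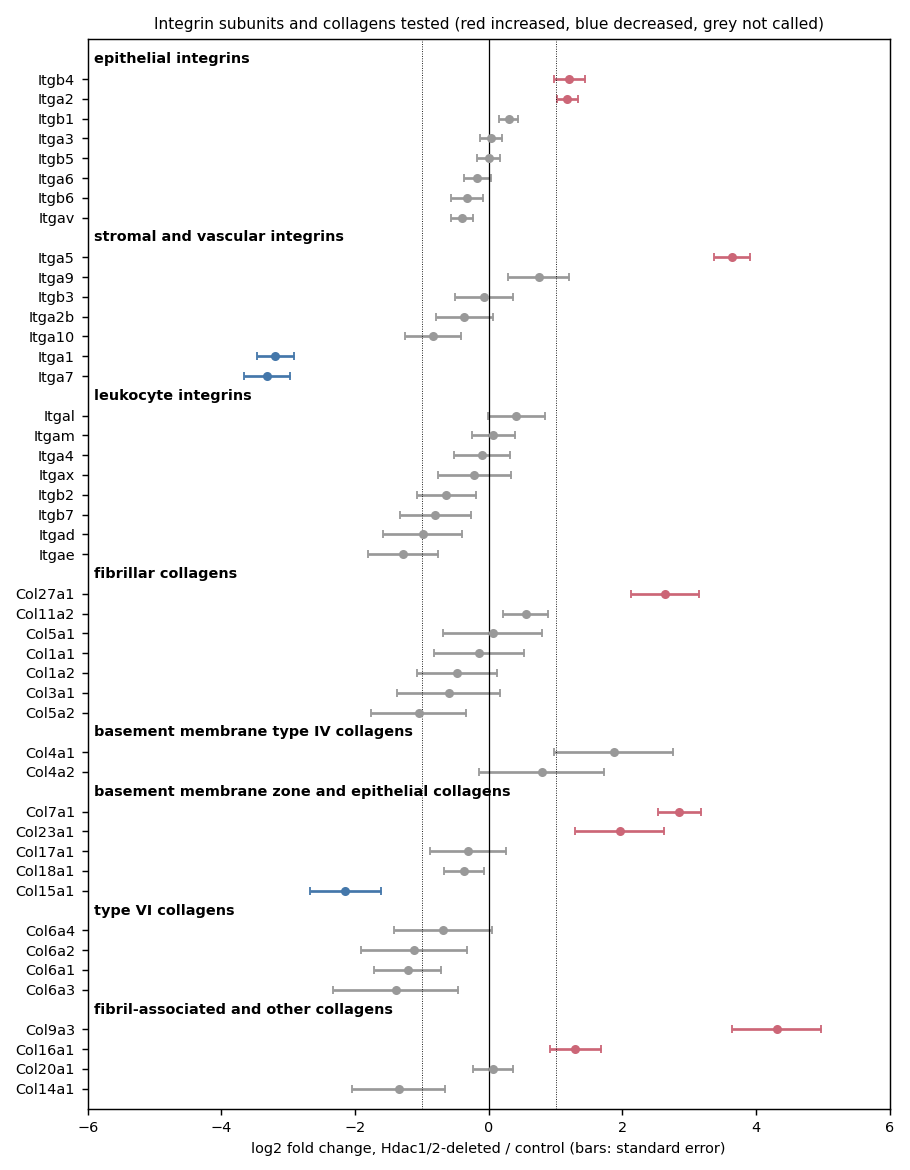
Log2 fold change between Hdac1/2-deleted and control IEC (horizontal axis, points with SE) of the 22 collagens and 23 integrin subunits tested, grouped by class, with dotted lines at a 2-fold change. Red points were called increased and blue points decreased, and the called members stand in epithelial integrins (2 increased), stromal and vascular integrins (1 increased, 2 decreased) and 3 classes of collagens, while no leukocyte integrin, type IV or type VI collagen was called.

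The promoters of 4 members with large changes are shown for the letters around their start sites, because Itga5 rose most among integrins, Itga1 and Itga2 are neighbours that changed in opposite directions, and Col7a1 rose most among collagens at over 1 CPM in control IEC. The windows are those of RefSeq on GRCm38.p6, from 250 bases before to 50 bases after the start site, written 5′ to 3′ on the strand of the gene. Capitals mark the GC box, GGGCGG or its reverse complement, searched on both strands.
Itga5 (chr15:103366742-103367041, minus strand): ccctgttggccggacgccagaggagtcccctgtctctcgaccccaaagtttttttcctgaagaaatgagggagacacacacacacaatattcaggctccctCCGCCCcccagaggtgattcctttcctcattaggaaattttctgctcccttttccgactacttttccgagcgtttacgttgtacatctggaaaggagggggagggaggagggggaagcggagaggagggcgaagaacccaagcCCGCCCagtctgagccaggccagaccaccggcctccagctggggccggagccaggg
Itga1 (chr13:115101915-115102214, minus strand): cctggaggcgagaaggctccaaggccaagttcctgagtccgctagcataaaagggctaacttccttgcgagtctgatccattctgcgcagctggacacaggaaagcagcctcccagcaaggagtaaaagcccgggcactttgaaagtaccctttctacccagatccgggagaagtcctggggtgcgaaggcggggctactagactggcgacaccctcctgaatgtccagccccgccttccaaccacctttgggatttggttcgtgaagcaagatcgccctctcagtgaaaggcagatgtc
Itga2 (chr13:114932051-114932350, minus strand): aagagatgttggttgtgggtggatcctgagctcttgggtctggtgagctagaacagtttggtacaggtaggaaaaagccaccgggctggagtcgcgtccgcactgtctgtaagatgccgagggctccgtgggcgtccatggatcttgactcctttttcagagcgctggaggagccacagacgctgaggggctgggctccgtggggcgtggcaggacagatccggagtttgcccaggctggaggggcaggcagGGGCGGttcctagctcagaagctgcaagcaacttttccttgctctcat
Col7a1 (chr9:108953336-108953635, plus strand): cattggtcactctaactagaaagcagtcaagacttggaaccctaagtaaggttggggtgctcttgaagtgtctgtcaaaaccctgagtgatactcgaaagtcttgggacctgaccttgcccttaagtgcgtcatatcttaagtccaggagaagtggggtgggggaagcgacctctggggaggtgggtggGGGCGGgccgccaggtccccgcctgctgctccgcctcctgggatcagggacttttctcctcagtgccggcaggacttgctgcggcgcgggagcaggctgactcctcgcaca

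The windows hold 13, 12, 13 and 12 CpG dinucleotides for Itga5, Itga1, Itga2 and Col7a1, against a median of 7 over all 32851 windows. A GC box was found in 35.7% of all windows and in those of 6 of the 8 called members that have one in the table, namely Itga5, Itga2, Col7a1, Col27a1, Col16a1 and Col23a1. It was not found in the windows of Itga1 and Col15a1, which both fell, although Itga7, the third member that fell, has no window in the table. The windows of Col4a1 and Col4a2, which were not called, hold a GC box too, and its share among members not called was not counted. The letters TATAAA occur in 13.6% of all windows and in none of these 8, and CCAAT in 37.4% of all windows and in 2 of the 8, those of Col7a1 and Col16a1. These are matches of letters within a short window and carry no information on whether a factor binds there.

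Subunits of laminin receptors and Itgb5 were the most abundant members. Per kilobase of exon, which allows genes to be set side by side, Itga3 stood first in control IEC at 66 ± 9.07 CPM per kilobase, followed by Itgb1 at 37.6 ± 1.54, Itgb4 at 36.1 ± 9.67, Itgb5 at 27.7 ± 4.23 and Itga6 at 16.5 ± 4.53. Itgb1 and Itgb4 lay within their spread of each other in that order. In Hdac1/2-deleted IEC, Itgb4 stood first at 83.3 ± 14.7 CPM per kilobase, and Itga3 followed at 67.6 ± 9.52. Of the 8 epithelial integrins, which pair as receptors for laminin (Itga3, Itga6, Itgb4), collagen (Itga2) and RGD-bearing ligands (Itgav, Itgb5, Itgb6) or as the shared Itgb1, 2 rose and 6 did not pass, and their median log2 fold change was 0.01.

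Itgb4, the partner of alpha6 in hemidesmosomes, lies on chromosome 11 from 115974709 to 116008412 (GRCm38). It stood at 176, 300 and 285 CPM in C1, C3 and C3-3 and at 468, 621 and 664 CPM in H1, H5 and H9. The groups did not overlap, and the lowest control mouse was C1. The log2 fold change was 1.21 (SE 0.23, adjusted p = 0.0032, edgeR). Itga6, its partner, was not called and stood at 149 ± 40.9 CPM in control and 132 ± 13 CPM in Hdac1/2-deleted IEC (log2 fold change -0.17, SE 0.20, adjusted p = 0.53). Within each mouse, the level of Itgb4 per kilobase over that of Itga6 was 1.19, 3.55 and 2.47 in control and 4.09, 6.33 and 6.91 in Hdac1/2-deleted mice. The ratio was higher in all Hdac1/2-deleted mice than in any control mouse, 2.41-fold between the group means. An exact permutation test of 3 mice against 3, two-sided, gives a p of 0.1 for any ratio that separates the groups, the smallest it allows.

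Itga3, the alpha subunit of the other main laminin receptor, stood at 356, 339 and 436 CPM in control and 326, 398 and 433 CPM in Hdac1/2-deleted mice, so that the groups covered the same range (log2 fold change 0.03, SE 0.17, adjusted p = 0.89). Itgb1 stood at 146 to 158 CPM in control and 167 to 211 CPM in Hdac1/2-deleted mice. All Hdac1/2-deleted mice were above all controls, and the difference did not pass the test (log2 fold change 0.30, SE 0.14, adjusted p = 0.12). Of the hemidesmosome and laminin-receptor partners (Plec, Dst, Cd151 and Krt14), 3 were tested and none was called. Dst, which encodes the plakin BPAG1 and its longer forms, passed the adjusted p without reaching a 2-fold difference, at 146 ± 25.8 CPM in control and 74.3 ± 3.27 CPM in Hdac1/2-deleted IEC (log2 fold change -0.97, SE 0.15, adjusted p = 0.0012). Plec, which links beta4 to keratin filaments, had a log2 fold change of 0.10 (SE 0.24), and its adjusted p was 0.78.

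**Figure D2:**
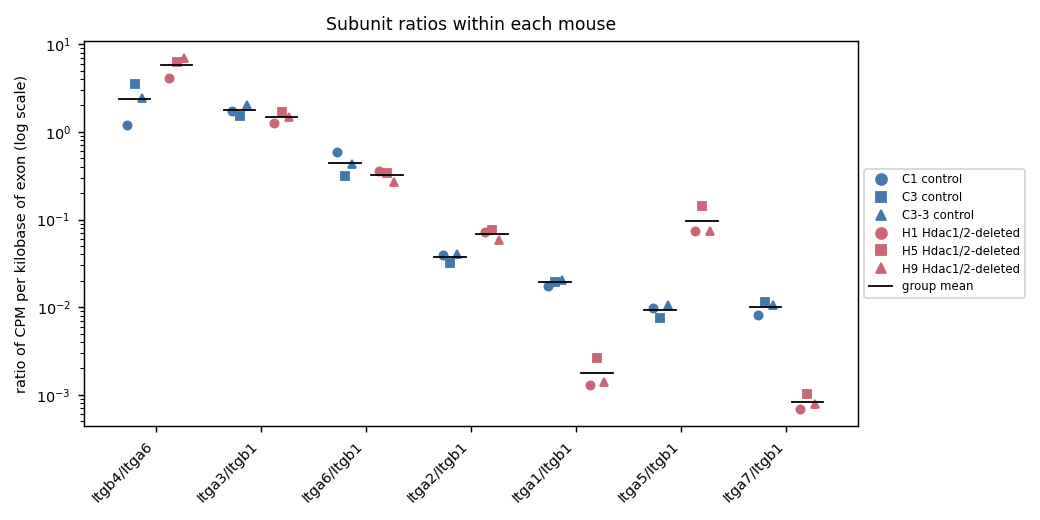
Ratio of CPM per kilobase of exon between integrin subunits within each mouse (vertical axis, log scale), with a symbol for each mouse and a line at the group mean. Itgb4 over Itga6, Itga2 over Itgb1 and Itga5 over Itgb1 lie higher in all Hdac1/2-deleted mice, Itga1 over Itgb1 and Itga7 over Itgb1 lie lower in all of them, and the groups overlap for Itga3 and Itga6 over Itgb1.

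The collagen receptors changed in opposite directions. Itga1 and Itga2 encode the alpha subunits of the 2 best known collagen-binding integrins, alpha1beta1 and alpha2beta1. They are neighbours on chromosome 13, with Itga2 from 114833081 to 114932100 and Itga1 from 114953096 to 115101964, both on the minus strand and 20995 bases apart. Itga1 stood at 11.8, 14.1 and 14.5 CPM in control mice and at 1.11, 2 and 1.35 CPM in Hdac1/2-deleted mice. Itga2 stood at 9.99, 8.73 and 11.1 CPM in control mice and at 23.4, 22.5 and 21.4 CPM in Hdac1/2-deleted mice. Neither gene's groups overlapped, and the 3 mice of each group lay close together.

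Itga1 fell with a log2 fold change of -3.19 (SE 0.27, adjusted p = 5.1e-05), and Itga2 rose with one of 1.18 (SE 0.16, adjusted p = 0.00057, edgeR). The level of Itga1 per kilobase over that of Itga2 was 0.452, 0.62 and 0.504 in control and 0.0181, 0.0341 and 0.0241 in Hdac1/2-deleted mice, which is 20.6-fold lower between the group means. Pelo, a ribosome rescue factor whose gene lies within Itga1 on the same strand, stood at 17.3 ± 2.27 and 20.1 ± 3.12 CPM and was not called (adjusted p = 0.36). Itga10, another collagen-binding alpha subunit, stood at 0.879 ± 0.378 and 0.494 ± 0.036 CPM (adjusted p = 0.14), and Itga11, the fourth, had 0 to 8 counts and was not tested. Among other collagen receptors, Ddr1, Ddr2 and Lair1 were not called, and the platelet collagen receptor Gp6 fell from 11 to 25 counts in control mice to 0, 0 and 5 counts in Hdac1/2-deleted mice (adjusted p = 0.018).

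Itga7 was the other subunit that fell. Itga7, the alpha subunit of a laminin receptor best known from muscle, stood at 2.37, 3.58 and 3.24 CPM in C1, C3 and C3-3 and at 0.256, 0.342 and 0.325 CPM in H1, H5 and H9. It fell with a log2 fold change of -3.32 (SE 0.34, adjusted p = 0.00013, edgeR). Both Itga1 and Itga7 were lowest among controls in C1, the control with the highest sum of the 3 muscle genes. Acta2, a smooth muscle actin, stood at 12.5, 11.1 and 0.602 CPM in the same control mice. Other genes of the fibroblast and muscle list were lowest in C1 too, with Fbln1, which fell, at 571, 846 and 635 CPM, and Vim at 6.91, 10.9 and 9.86 CPM in C1, C3 and C3-3. Per kilobase, Fbln1 stood at 157 CPM in control and Acta2, the next highest of that list, at 3.67 CPM. Which cells the Fbln1 RNA came from was not tested. Without C1 and C3, both genes were still called. The part of stromal or muscle cells in these levels was not tested. Mettl7b, which overlaps Itga7 on the other strand and is far more abundant, stood at 98.5 ± 35.1 and 91.9 ± 21.9 CPM and was not called.

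Itga5 rose most among the integrin subunits. It encodes the alpha subunit of alpha5beta1, the classical fibronectin receptor, and lies on chromosome 15 from 103344286 to 103366763. Its levels were 1.72, 1.42 and 1.98 CPM in control mice and 16.6, 28.7 and 18.7 CPM in Hdac1/2-deleted mice, with H5 the highest and no overlap. The log2 fold change was 3.64 (SE 0.27, adjusted p = 2.8e-05, edgeR). Relative to Itgb1, its level per kilobase was 0.00743 to 0.0105 in control and 0.0733 to 0.142 in Hdac1/2-deleted IEC, 10.4-fold higher between means.

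Other members that Itga5 is often listed with as stromal or vascular did not rise with it. Itga9 stood at 0.523 ± 0.193 and 0.882 ± 0.368 CPM (adjusted p = 0.22), Itgb3 at 0.714 ± 0.289 and 0.684 ± 0.197 CPM (adjusted p = 0.91), and Itga2b, the platelet subunit, at 1.42 ± 0.314 and 1.1 ± 0.55 CPM (adjusted p = 0.52). The endothelial marker Pecam1 stood at 1.26 ± 0.122 and 1.86 ± 0.69 CPM (adjusted p = 0.23), and the 7 endothelial markers summed to 6 to 8.64 CPM in control and 10.8 to 12.2 CPM in Hdac1/2-deleted mice, with none of the 5 tested called. Of these, Lyve1 at 4.84 ± 0.72 and 7.88 ± 0.165 CPM (adjusted p = 0.026) and Eng at 0.254 ± 0.188 and 0.687 ± 0.187 CPM (adjusted p = 0.11) were higher in all Hdac1/2-deleted mice than in any control mouse. The pericyte receptor Pdgfrb rose from 1.62 ± 0.829 to 13 ± 5.52 CPM (log2 fold change 3.00, SE 0.45, adjusted p = 0.001), while Pdgfra, the defining fibroblast receptor, had 3 to 44 counts and was not tested. The part of other cell types in the rise of Itga5 was not tested.

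The alpha v, beta5 and beta6 subunits, which make receptors for RGD-bearing ligands, did not pass the test. Itgav stood at 14.8, 14 and 15.9 CPM in control and 10.2, 12 and 11.6 CPM in Hdac1/2-deleted mice, without overlap (log2 fold change -0.40, SE 0.16, adjusted p = 0.077). Itgb5 stood at 98.6 ± 15 and 98.3 ± 17.6 CPM, and Itgb6, which with alpha v activates latent TGF-beta in epithelia, at 9.06 ± 1.07 and 7.23 ± 1.85 CPM. Itgb8 was not analysed here. Of 13 integrin ligands outside the collagens and laminins, 11 were tested, 3 rose and 1 fell, where 12.4% of all tested genes rose and 12.7% fell.

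Nid1 and Npnt rose by more than any member. Nid1, the basement membrane linker nidogen-1, stood at 0.602 to 1.06 CPM in control and 180 to 254 CPM in Hdac1/2-deleted mice (log2 fold change 8.05, SE 0.28, adjusted p = 1.6e-06). Npnt, the matrix protein nephronectin and a ligand of alpha8beta1, stood at 0.36 to 0.74 CPM in control and 39.7 to 44.6 CPM in Hdac1/2-deleted mice (log2 fold change 6.27, SE 0.27, adjusted p = 2.3e-06), and its receptor subunit Itga8 had 14, 3 and 0 counts in C1, C3 and C3-3 and none in any Hdac1/2-deleted mouse. Icam1, the ligand of beta2 integrins, rose from 1.64 ± 0.633 to 24.2 ± 9.95 CPM (adjusted p = 0.00019). Spp1, which encodes osteopontin, fell with a log2 fold change of -2.09 (SE 0.68, adjusted p = 0.038), from 25 to 134 counts in control to 7 to 39 in Hdac1/2-deleted mice. Fn1, the fibronectin ligand of alpha5beta1, stood at 3.47 ± 1.76 and 2.74 ± 0.577 CPM and was not called (adjusted p = 0.54).

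**Figure D3:**
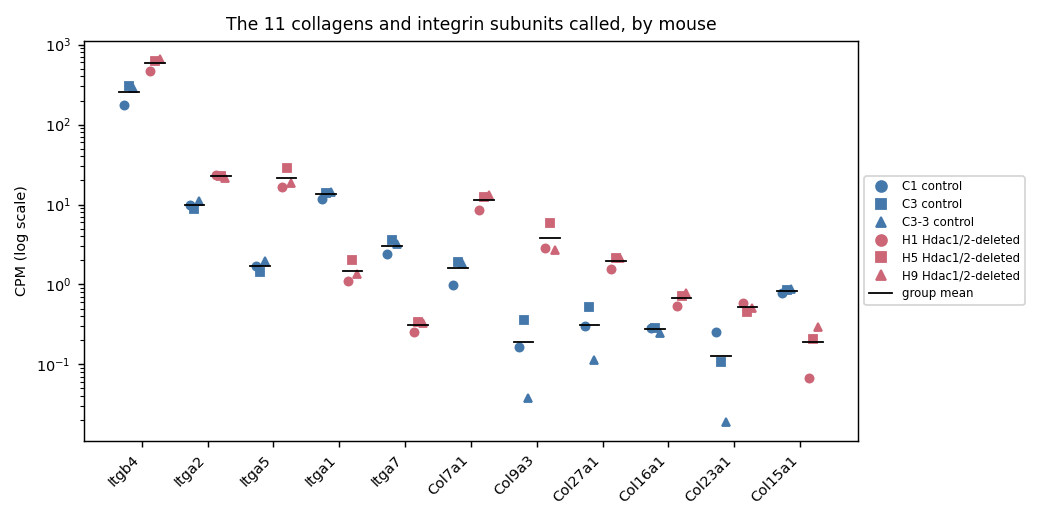
CPM of the 11 called members in each mouse (vertical axis, log scale), with a symbol for each mouse and a line at the group mean. Itgb4, Itga2, Itga5, Col7a1, Col9a3, Col27a1, Col16a1 and Col23a1 are higher and Itga1, Itga7 and Col15a1 lower in every Hdac1/2-deleted mouse than in any control mouse, and the control mice spread most for Col9a3, Col27a1 and Col23a1, where C3-3 was lowest.

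The 8 leukocyte integrins were not called, and their median log2 fold change was -0.42. Itgae, the alpha E subunit of intraepithelial T cells, stood at 12.5, 50.5 and 41.7 CPM in C1, C3 and C3-3 and at 9.58, 13.5 and 19.9 CPM in H1, H5 and H9. C1 lay among the Hdac1/2-deleted mice, and the other control mice lay above all of them. The log2 fold change was -1.29 (SE 0.53, adjusted p = 0.096, edgeR). Without C1 it was -1.68 (adjusted p = 0.0025, edgeR) and Itgae, Itgb7 and Itgad were called decreased. DESeq2 on all mice also called Itgae (log2 fold change -1.27, adjusted p = 0.011). C1 was the lowest control for 7 of the 8 leukocyte integrins.

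Most T cell markers had lower means in Hdac1/2-deleted mice too. Cd3e stood at 6.66, 23.5 and 20.1 CPM in control and 4, 8.48 and 8.75 CPM in Hdac1/2-deleted mice (adjusted p = 0.088), and Ptprc, the pan-leukocyte marker CD45, at 8.21, 20.2 and 21.1 CPM and 6.87, 6.24 and 12.3 CPM (adjusted p = 0.09). Of the 9 T cell markers, 2 fell (Cd3g, adjusted p = 0.034, and Cd8a, adjusted p = 0.038), no marker was at 0 in a group, and their sum was 69.2 to 238 CPM in control and 44.2 to 90.7 CPM in Hdac1/2-deleted mice. Cd5 alone had a higher mean in Hdac1/2-deleted mice (log2 fold change 0.59), and Cd2 and Cd8b1 had log2 fold changes of -0.14 and -0.38. None of Cd5, Cd2 and Cd8b1 was called. In stained jejunal sections, a measure of protein in whole tissue, the paper saw more CD3-positive T cells in mutant mice. Per kilobase, Itgae over Cd3e was 1.68, 1.92 and 1.84 in control and 2.14, 1.41 and 2.03 in Hdac1/2-deleted mice, ranges that overlap. Itgb7 over Cd3e was 1.12, 1.23 and 0.995 in control and 1.39, 1.57 and 1.54 in Hdac1/2-deleted mice, higher in all of the latter. The gene Gsg2, which lies within Itgae on the other strand, rose from 6.01 ± 1.3 to 18.6 ± 1.53 CPM (adjusted p = 0.00035), opposite to the means of Itgae.

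The other leukocyte subunits differed in how they stood to their partners. Itgb7 was at 12.7 ± 7.32 and 7.32 ± 3.07 CPM and Itgb2, the shared beta subunit of LFA-1 and Mac-1, at 7.81 ± 3.97 and 5.03 ± 1.68 CPM. Itgal, the alpha subunit of LFA-1, was at 1.94 ± 0.933 and 2.58 ± 0.81 CPM, and its level per kilobase over that of Itgb2 was 0.139, 0.124 and 0.0977 in control and 0.217, 0.274 and 0.228 in Hdac1/2-deleted mice, with no overlap and 1.99-fold higher between means. The myeloid subunits Itgam and Itgax stood at 1.71 ± 0.465 and 1.8 ± 0.332 CPM and at 4.56 ± 2.87 and 3.92 ± 2.09 CPM, and Itga4, which pairs with beta1 or beta7, at 1.51 ± 0.358 and 1.4 ± 0.727 CPM. None of these passed the test (adjusted p = 0.27 to 0.88). Of the 9 myeloid and B cell markers 7 were tested. Csf1r rose from 3.65 ± 0.865 to 12.3 ± 4.86 CPM and Cd79b from 1.15 ± 0.421 to 32.7 ± 7.06 CPM, and Cd14 fell from 58.2 ± 9.74 to 14.5 ± 3.88 CPM, whereas Cd79a, the partner of Cd79b in the B cell receptor, stood at 0.732 ± 0.453 and 0.346 ± 0.137 CPM (adjusted p = 0.16).

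**Figure D4:**
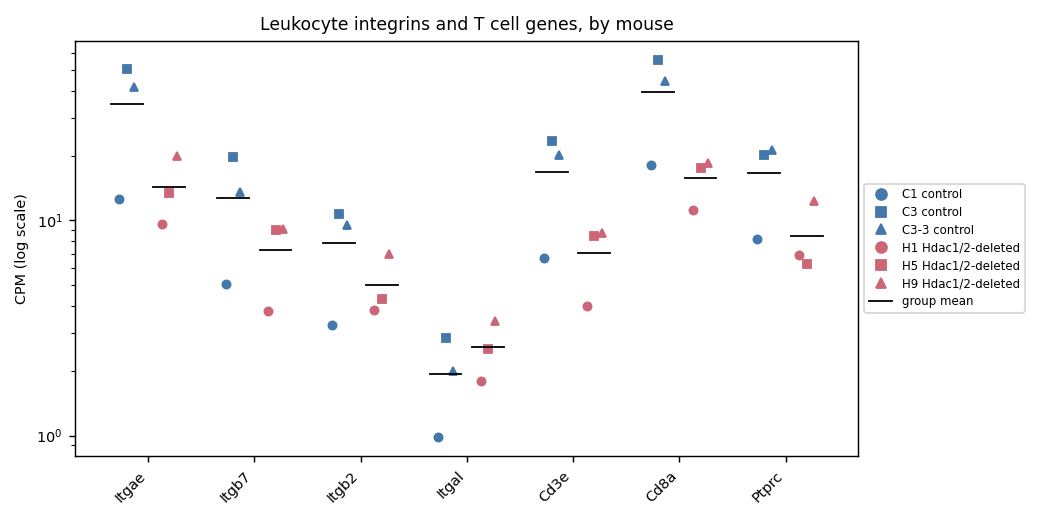
CPM of the leukocyte integrins Itgae, Itgb7, Itgb2 and Itgal and of the T cell and leukocyte genes Cd3e, Cd8a and Ptprc in each mouse (vertical axis, log scale), with a symbol for each mouse and a line at the group mean. For all 7 genes C1 is the lowest control mouse, for Itgae, Itgb7, Cd3e, Cd8a and Ptprc it lies among the Hdac1/2-deleted mice, and for Itgb2 and Itgal it lies below them.

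Collagens were rare transcripts in these IEC. The highest collagen level was 0.855 CPM per kilobase in control IEC, that of Col20a1, and 1.11 CPM per kilobase in Hdac1/2-deleted IEC, that of Col7a1. Of 11 called members, the 6 collagens had at most 107 counts in any control library, so that their fold changes rest on few reads there. By comparison Itgb4 had 11636 to 16651 counts in control libraries.

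Among the collagens of the basement membrane zone and of epithelial cells, 2 rose and 1 fell of 5 tested. Col7a1, the chain of the anchoring fibrils, stood at 0.981, 1.93 and 1.84 CPM in control and 8.57, 12.5 and 13.1 CPM in Hdac1/2-deleted mice. The groups were far apart, with a log2 fold change of 2.85 (SE 0.32, adjusted p = 0.00021, edgeR). Col7a1 lies on chromosome 9 from 108953586 to 108984875. Col23a1, a transmembrane collagen, had 17, 6 and 1 counts in control and 44, 17 and 31 counts in Hdac1/2-deleted mice. It passed narrowly (log2 fold change 1.96, SE 0.67, adjusted p = 0.042) and was no longer called when any mouse other than C1 was left out.

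Col15a1, a collagen at the outer face of basement membranes of muscle and vessels, had 52, 47 and 46 counts in control mice and 5, 8 and 18 counts in Hdac1/2-deleted mice. It fell with a log2 fold change of -2.14 (SE 0.53, adjusted p = 0.011, edgeR), and the part of muscle RNA in this fall was not tested. Without C1 and C3 its log2 fold change was -2.19, and it was not called with the lone control (adjusted p = 0.062). Col17a1, the transmembrane collagen of hemidesmosomes in skin, had 8, 27 and 27 counts in control and 18, 14 and 18 in Hdac1/2-deleted mice, and Col18a1, the source of endostatin, stood at 1.98 ± 0.335 and 1.54 ± 0.276 CPM. Neither was called (adjusted p = 0.7 and 0.36). Thus of the genes named here for hemidesmosomes and anchoring fibrils, Itgb4 and Col7a1 rose, and Itga6, Col17a1, Plec and Cd151 were not called. Dst was lower without reaching a 2-fold difference. Which cells this RNA came from, and which of these genes serve hemidesmosomes in the jejunum, was not tested.

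The type IV chains depended on the control mouse. Col4a1 and Col4a2, the main chains of the basement membrane sheet, lie head to head on chromosome 8, and their RefSeq promoter windows share 78 bases, shown because both genes start within them, with the GC box in capitals and the strand that of Col4a2.
Col4a1 and Col4a2 shared window (chr8:11312777-11312854, plus strand): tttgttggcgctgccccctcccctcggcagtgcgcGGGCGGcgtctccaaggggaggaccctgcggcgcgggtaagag

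Col4a1 had 274, 62 and 10 counts in C1, C3 and C3-3 and 435, 296 and 395 counts in H1, H5 and H9. Col4a2 had 165, 53 and 3 counts in the control mice and 129, 94 and 117 counts in the Hdac1/2-deleted mice. Both spread widely over control mice, in the order of the sum of the 3 muscle genes, and were alike over Hdac1/2-deleted mice. Whether muscle RNA had a part in this was not tested. All Hdac1/2-deleted mice were above all controls for Col4a1 in CPM, and it was not called (log2 fold change 1.87, SE 0.89, adjusted p = 0.14). Without C1 the log2 fold change of Col4a1 was 3.36 (adjusted p = 0.0066, edgeR), and without C1 and C3 it was 5.15. Col4a2 was not called either (log2 fold change 0.79, SE 0.93, adjusted p = 0.54). Without C1 its log2 fold change was 2.01 (adjusted p = 0.12, edgeR), and without C1 and C3 it was 5.13. The fit without C1 and C3 takes its spread from the Hdac1/2-deleted mice alone. For both genes the control mice spread far more widely than these, so only the size of the difference is given for that fit.

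The level of Col4a1 per kilobase over that of Col4a2 was 2.99, 2.79 and 2.99 in Hdac1/2-deleted mice and 1.47, 1.04 and 2.96 in control mice. C3-3, the control with little muscle RNA, had a ratio near that of the Hdac1/2-deleted mice, from 10 and 3 counts. Col4a5 had 0 to 5 counts in every library and was not tested, and Col4a3, Col4a4 and Col4a6 were not analysed here.

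**Figure D5:**
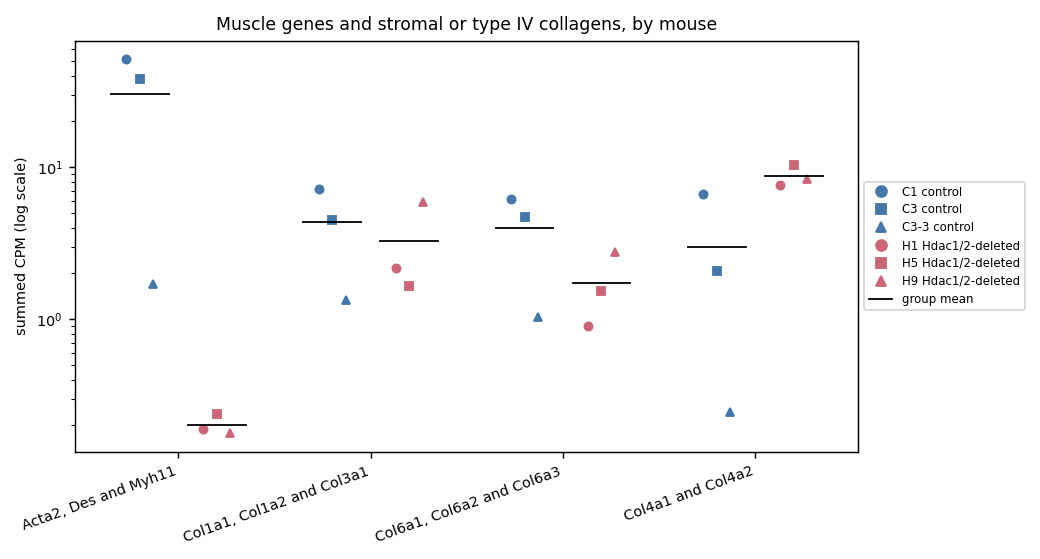
Summed CPM (vertical axis, log scale) of 3 smooth muscle genes, 3 fibrillar collagen chains, 3 type VI chains and 2 type IV chains in each mouse, with a symbol for each mouse and a line at the group mean. For all 4 sums C1 is the highest and C3-3 the lowest control mouse, and only the muscle genes and the type IV chains separate the groups, in opposite directions. The muscle genes were chosen after their values were seen, so that their separation is no independent result.

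Of the fibrillar and type VI collagens, those of connective tissue, none but Col27a1 was called. Col1a1, the main chain of type I collagen, stood at 2.04, 1.58 and 0.395 CPM in control and 0.567, 0.842 and 2.23 CPM in Hdac1/2-deleted mice, Col1a2 at 1.81, 1.06 and 0.433 CPM and 0.634, 0.395 and 1.33 CPM, and Col3a1 at 3.38, 1.87 and 0.508 CPM and 0.985, 0.421 and 2.37 CPM. All 3 chains were highest in C1 among controls and in H9 among Hdac1/2-deleted mice, and the groups overlapped (adjusted p = 0.56 to 0.88). Among the 14 fibrillar and type VI collagens, 11 followed the order C1, C3, C3-3 from high to low. The 10 fibroblast and muscle markers summed to 638 to 901 CPM in control and 198 to 364 CPM in Hdac1/2-deleted mice. Most of that sum was Fbln1, which fell from 684 ± 144 to 279 ± 87 CPM. Of these 10 markers, 5 fell (Acta2, Des, Myh11, Dcn and Fbln1) and Pdgfrb rose, and Myh11 had 0 counts in H5 and H9. The part of muscle RNA in the collagen levels was not tested.

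The type VI chains had lower means in Hdac1/2-deleted IEC without being called. Col6a1 stood at 2.14, 1.93 and 0.64 CPM and 0.526, 0.527 and 0.975 CPM (log2 fold change -1.21, adjusted p = 0.084), Col6a2 at 1.68 ± 1.23 and 0.778 ± 0.493 CPM (adjusted p = 0.29), and Col6a3 at 0.735 ± 0.65 and 0.277 ± 0.239 CPM (adjusted p = 0.27). C3-3 lay among the Hdac1/2-deleted mice for Col6a1 and Col6a2 and below them for Col6a3. Without C1 and C3, the log2 fold changes were 0.094, 1.28 and 1.87. C3-3, the lone control there, had 34, 17 and 4 counts of Col6a1, Col6a2 and Col6a3. With C1 alone left out, the log2 fold changes were -0.91, -0.59 and -0.57. The direction of these 3 chains thus depended on the controls kept, and the part of muscle RNA in it was not tested.

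Col27a1, a fibrillar collagen best known from cartilage, differed from these chains. It had 20, 29 and 6 counts in control and 116, 81 and 133 counts in Hdac1/2-deleted mice, and rose with a log2 fold change of 2.63 (SE 0.51, adjusted p = 0.0033, edgeR). Col9a3, a chain of the fibril-associated type IX collagen, rose most of all members, with 11, 20 and 2 counts in control and 212, 220 and 166 counts in Hdac1/2-deleted mice (log2 fold change 4.31, SE 0.66, adjusted p = 0.0012). Of the other type IX chains, Col9a1 had 0 to 4 counts and Col9a2 0 to 13 counts over all libraries, too few to be tested. Tcfl5, on the other strand and overlapping Col9a3, had 1, 0 and 0 counts in control and 10, 19 and 7 counts in Hdac1/2-deleted mice.

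Col16a1, another fibril-associated chain, had 19, 16 and 13 counts in control and 40, 27 and 48 counts in Hdac1/2-deleted mice (log2 fold change 1.30, SE 0.38, adjusted p = 0.024), a call that was lost when any mouse other than H1 was left out. Both Col9a3 and Col27a1 were called under every alternative. Without C1 and C3, the log2 fold change of Col16a1 was 1.47. No called member changed sign under any alternative, the one without C1 and C3 among them.

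The genes that make, attach to and cut collagens were followed as lists. Of 25 genes of collagen synthesis and processing, 20 were tested, 6 rose and 2 fell, with a median log2 fold change of 0.33. Over all tested genes, 12.4% rose and 12.7% fell. Adamts14, a protease that trims the amino end of fibrillar procollagens, had 2, 1 and 0 counts in control and 97, 60 and 107 counts in Hdac1/2-deleted mice (adjusted p = 9.3e-05). Pcolce, which enhances trimming at the other end, rose from 0.719 ± 0.44 to 10.7 ± 3.45 CPM (log2 fold change 3.90, adjusted p = 0.00062), and P3h4, a partner of prolyl hydroxylation complexes, from 0.741 ± 0.238 to 5.28 ± 0.681 CPM (log2 fold change 2.82, adjusted p = 0.00021). Bmp1, the protease that trims the carboxyl end, fell from 81.9 ± 26.3 to 25.8 ± 5.67 CPM (adjusted p = 0.0012). Plod2, a lysyl hydroxylase, fell from 22 to 25 counts in control to 3 to 14 counts in Hdac1/2-deleted mice (adjusted p = 0.037). The other genes that rose were Loxl2, Plod3 and Crtap.

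Of 23 adaptors that join integrins to actin, 2 rose and 4 fell, with a median log2 fold change of -0.16. Over all tested genes, 12.4% rose and 12.7% fell. Actn1, the crosslinker alpha-actinin-1, rose from 38.8 ± 3.44 to 153 ± 23.2 CPM (log2 fold change 1.97, adjusted p = 3.6e-05), and Parvb, beta-parvin, from 0.416 ± 0.0556 to 1.64 ± 0.217 CPM (adjusted p = 0.0017). Parva, the related alpha-parvin, fell from 26.5 ± 3.74 to 11.9 ± 2.92 CPM (adjusted p = 0.0025), opposite to Parvb. Lims1, which encodes PINCH-1, fell from 17.8 ± 2.18 to 4.87 ± 1.05 CPM (adjusted p = 0.00024), Flna, filamin A, from 17.7 ± 7.47 to 6.02 ± 0.598 CPM (adjusted p = 0.0044), and Tns4, a tensin of epithelial cells, from 59.9 ± 56.2 to 6.17 ± 1.48 CPM (adjusted p = 0.015). C3-3 held 125 CPM of Tns4 against 25.8 and 29.1 CPM in C1 and C3, so that this mean rests mainly on 1 mouse. Flna stood at 24.4, 19.1 and 9.63 CPM in C1, C3 and C3-3, the order of the sum of the 3 muscle genes. The part of muscle RNA in the fall of Flna was not tested.

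Of 10 genes of collagen breakdown and its inhibitors, 8 were tested, 3 rose and 1 fell, where 12.4% of all tested genes rose and 12.7% fell. Mmp14, a membrane-bound collagenase, rose from 22.2 ± 6.79 to 66.6 ± 10.6 CPM (log2 fold change 1.59, adjusted p = 0.00075). The metalloproteinase inhibitors Timp2 and Timp3 rose from 2.35 ± 0.135 to 5.1 ± 0.924 CPM and from 1.68 ± 0.533 to 4.58 ± 1.35 CPM (adjusted p = 0.0071 and 0.0091). Mmp7, the matrilysin of Paneth cells, fell from 50.1 ± 17 to 22.4 ± 8.4 CPM (adjusted p = 0.025). The genes matched by name that are not subunits differed little. Itgb1bp1 stood at 4.27 ± 0.0906 and 4.74 ± 0.985 CPM and Itgb3bp at 0.637 ± 0.152 and 0.575 ± 0.171 CPM, neither called, and Itgb1bp2 had 0 to 7 counts.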

How the data were processed

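RNA-Seq of EDTA-enriched jejunal IEC from 3 control and 3 Hdac1/2-deleted mice was analysed, grouped by sample title. The authors aligned reads with STAR and deposited raw counts per gene. The paper names GRCm38, whereas the submitters' processing notes name mm9 and STAR 2.4.0f1, and the counter, its annotation and its use of strand are not given in the sources used here. Where genes overlap, their reads may therefore be split wrongly. The deposited scaled scores are the authors' counts times 1 factor per sample, rounded, and were not tested. The authors' fold changes, mean log CPM and p-values were not used.

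Counts were fitted with edgeR 4.0.16 (limma 3.58.1, R 4.3.3): filterByExpr, TMM (factors 0.892 to 1.14), robust quasi-likelihood, prior count 0.125 and Benjamini-Hochberg adjustment over 15618 genes. DESeq2 1.42.0 served as an alternative, and plots used matplotlib 3.10.9. The limits, adjusted p of 0.05 and 2-fold, follow the study's methods. Each SE is the size of the log2 fold change divided by the root of its F statistic. Depths were 36111035 to 65902344 counts. P-values set the difference between groups against the spread between mice, moderated over all tested genes. Without C1 and C3, no spread between control mice enters. Exon lengths and positions came from GENCODE M21 on GRCm38, and promoters from RefSeq GRCm38.p6, which held 47 of 61 members. The steps were tested on simulated data.

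Members, lists and tests were chosen with earlier results of these data known. Named with values were called members, fixed epithelial, leukocyte, collagen-binding and type IV, I, III, VI, VII, XVII and XVIII members, the 3 most changed called genes of each list in each direction, and called or defining markers. Others, such as overlapping genes, Dst, Plec, Fn1, Vim, Lyve1, Eng, Itga8 and the partners in ratios, were added after their values were seen. Of 18 ratios computed, between members or between a member and Cd3e or Ptprc, 9 separated the groups. All ratios with Itga1, Itga2, Itga5, Itga7 or Itgb4 were among these 9, and each of those members was called by itself. Of single genes tested, 26.7% separated the groups with deleted mice higher and 26.6% with deleted mice lower. No such share was counted for ratios of other genes. Alternatives changed the scaling, test, filter, fold limit, shrinkage and prior count or left out each mouse.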

Additional observations from a re-analysis of the deposited data

How the results depend on the processing

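Of the 4 counts of members called, that of integrin subunits increased was 3 under every alternative run. Collagens increased numbered 5, and 3 to 6 with 1 mouse left out. Collagens decreased numbered 1, but 2 with every deposited gene tested, 0 without C1 and C3 and 1 to 3 with 1 mouse left out. Integrin subunits decreased numbered 2, but 4 without C1 and C3 and 2 to 5 with 1 mouse left out, the 5 arising without C1. Itga1, Itga2, Itga5, Itga7, Itgb4, Col7a1, Col9a3 and Col27a1 were called under all 14 alternatives, Col15a1 under 13, Col23a1 under 9 and Col16a1 under 8. No paired analysis was run, because the labels give no pairing of mice.

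Signs turned for members that were not called. Scaling by library totals alone moved the median log2 fold change of all genes from -0.01 to 0.18, and gave 0.092 for Itga4, 0.0048 for Itga6 and 0.18 for Itgb5, which was also 0.011 with RLE size factors and with DESeq2. Without C1 and C3 the log2 fold changes were 1.62 for Col1a1, 0.88 for Col1a2, 1.33 for Col3a1, 0.094 for Col6a1, 1.28 for Col6a2, 1.87 for Col6a3, -0.17 for Itga3, 0.023 for Itgax and 0.21 for Itgb5. With 1 mouse left out, values ranged from -0.73 to 6.0e-04 for Col17a1, -0.94 to 0.30 for Col1a1, -1.08 to 0.092 for Col1a2, -1.42 to 0.099 for Col3a1, -0.053 to 0.16 for Itga3, -0.56 to 0.19 for Itga4, -0.35 to 0.048 for Itga6, -0.071 to 0.31 for Itgam, -0.69 to 0.40 for Itgax and -0.14 to 0.13 for Itgb5. The cause was not tested.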
